A study of Danio rerio with 6 samples.

Results

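Dense clusters of open regions are stretches of the zebrafish genome in which many short accessible sites lie close together. They were selected from ATAC-seq peaks of embryos at 50% epiboly, and they held 1914 regions in 423 clusters, 3.79% of the 50533 regions that passed the same filter and 2.25% of the 85003 merged regions in all. In ATAC-seq the transposase Tn5 cuts accessible DNA and leaves adapters there, so that sequenced fragments pile up at open chromatin. The embryos were AB wild type, collected at 5.5 hpf. One group was exposed to 5 μM PF-06726304 acetate (Ezh2i), which inhibits the histone methyltransferase Ezh2, and the other was kept in 0.05% DMSO (control). The exposure ran from about the 2-cell stage. Each group had 3 replicates, with 150 embryos maintained per exposure, so each sample pools all cell types of whole embryos. A change in the share of cells that carry an open site and a change in its openness per cell cannot be told apart in such pools.

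Ezh2 is the catalytic subunit of Polycomb repressive complex 2, which methylates lysine 27 of histone H3 (H3K27). Chromatin with this mark is compact and its genes are mostly silent. Promoters, enhancers and other regulatory DNA are open where proteins displace nucleosomes, and several such sites often lie side by side around genes that are used in the early embryo. Whether sites that lie side by side open or close together when Ezh2 is inhibited was the question of the comparison.

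Peaks were called by the authors for each sample separately, which gave 6 lists. Overlapping peaks from any of the lists (1 shared base or more) were merged into regions. Regions on chromosomes 1 to 25 with a peak in at least 3 lists were kept, without chromosome 4 from position 27000000 on. Consecutive regions were joined into a chain when the gap between them was at most 3000 bases, and chains of at least 4 regions were called dense clusters. Presence of a peak and spacing of regions thus chose the members, and both are described below without a test. All positions are on GRCz11, counted from 1. The height of a peak is the number of fragments that cover its summit, and the height of a region in a sample is that of its tallest peak there. Between 5894731 and 6877909 fragments per sample entered the peak calling. Gene annotation of this build was not at hand, so the clusters are named by position and not by gene.

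Most clusters were small. There were 303 clusters of 4 regions (71.6%), 72 clusters of 5 regions and 46 clusters of 6 to 9 regions. Only 2 clusters were larger, with 15 and 16 regions. The median cluster spanned 4890 bases, with a range of 1087 to 24071 bases. Regions of a cluster were separated by a median gap of 1082 bases, and 206 of the 1491 gaps (13.8%) were no longer than 250 bases. The rule drew the border at a gap of 3000 bases. Just inside it lay a cluster of 4 regions at chr15:23760544-23765445, with a largest gap of 3000 bases and a mean height of 29.3 fragments, and one at chr3:23555247-23564329, with 2999 bases and 50.7 fragments. Just outside it lay groups of 4 regions at chr20:23999494-24006029, with a gap of 3016 bases and 26.4 fragments, and at chr14:52216609-52224979, with 3018 bases and 14.9 fragments.

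Clusters were found on every chromosome, although unevenly. Chromosome 7 held 44 clusters with 210 regions, 6.82% of its regions that passed the filter. Chromosome 25 followed with 15 clusters and 95 regions (6.44%), and chromosome 8 had the lowest share (2.47%). Of the 95 regions on chromosome 25, 59 lay in 6 clusters between positions 35045134 and 36370526, among them both of the largest clusters. Most clusters were solitary, and only 50 of all 423 clusters (11.8%), those of this stretch counted in, lay within 50000 bases of another. No cluster lay in the intervals that the study drew around bdnf and lin7c, around cebpa and cebpg, or around igfbp1a and igfbp3. The longest chains there held 2, 2 and 3 regions.

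Within a cluster the regions were of unequal height. The tallest region was a median of 2.60 times as high as the lowest of the same cluster, and at most 9.09 times. The coefficient of variation of the heights within a cluster had a median of 41.4%. In 189 clusters (44.7%) the tallest region was the first or the last, close to the 44.2% of members that are in such an end position. The members were about as short as other regions, with a median length of 178 bases, against 182 bases for the 48619 other regions that passed the filter. At least 500 bases were reached by 21 members (1.10%) and by 0.817% of the others. A peak in all 6 lists was found at 1261 members (65.9%) and at 57.5% of the others.

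Regions of clusters were tall on a high background. The heights come from the same peaks that the rule used, so the contrast with other regions is given as a description. Over regions with a peak in all 6 lists, the median height in clusters was 40, 42 and 41 fragments in Ezh2i samples 1, 2 and 3, and 36, 39 and 37 fragments in controls 1, 2 and 3. In the other regions it was 26, 24 and 27 fragments in Ezh2i samples 1, 2 and 3, and 23, 24 and 22 fragments in the controls. On the log2 scale regions of clusters were higher than the others by 0.64 ± 0.079 (SD, n = 6), a 1.56-fold difference seen in 6 of 6 samples. The local background is the coverage that the peak caller expected at a base from the 10000 bases around it in that library, neighbouring peaks included. Its median in clusters was 2.74, 3.06 and 2.74 fragments in the Ezh2i samples, and 2.48, 2.67 and 2.66 fragments in the controls. In the other regions it lay between 0.743 and 0.788 fragments in the Ezh2i samples, and between 0.702 and 0.752 fragments in the controls. The rule packs regions with gaps of at most 3000 bases, so peaks of neighbours enter this background. The contrasts in background and fold enrichment are therefore descriptions too, in part set by the selection. Background in clusters was 3.63-fold that of the other regions. Fold enrichment over it was 0.750 times that of the other regions, lower in 6 of 6 samples.

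**Figure D1:**
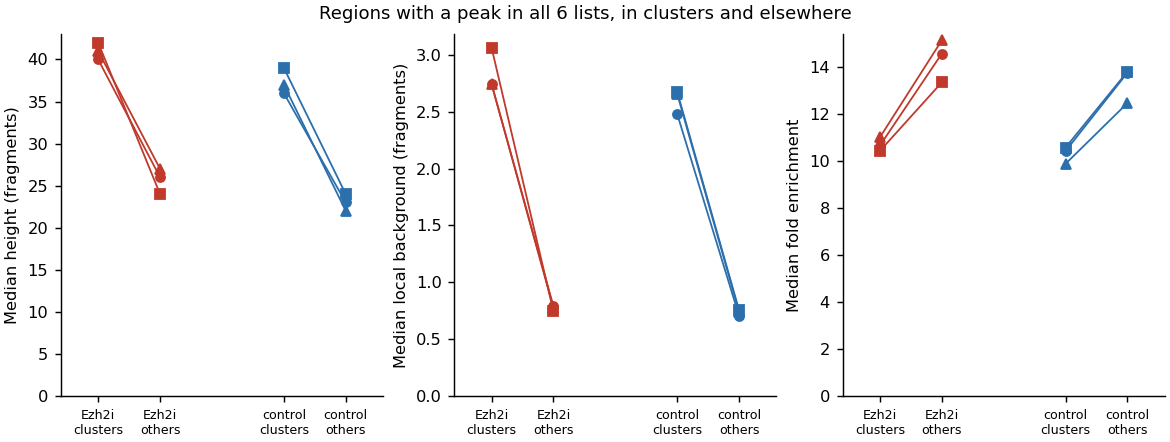
Median height, median local background and median fold enrichment per sample, for regions with a peak in all 6 lists, in dense clusters and elsewhere. Each line joins both values of 1 sample (circle, square and triangle for samples 1, 2 and 3), with Ezh2i samples in red on the left and controls in blue on the right; clusters were taller and had more background in all 6 samples, and had a lower fold enrichment.

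No difference between exposures was detected in this excess height. On the log2 scale the excess was 0.58, 0.77 and 0.57 in Ezh2i samples 1, 2 and 3, and 0.59, 0.63 and 0.70 in controls 1, 2 and 3. The means were 0.640 ± 0.113 in Ezh2i samples and 0.643 ± 0.053 in controls (SD, n = 3 each), a difference of -0.0027 (exact permutation test, two-sided, p = 1). With 3 samples per group no p under 0.1 can be reached by this test. The sign of this small difference turned without Ezh2i sample 1 (0.0296), without Ezh2i sample 3 (0.0333) and without control 3 (0.0297). Ezh2i sample 2 stood apart from both other Ezh2i samples and had the largest excess of the 6. The background of clusters was 2.85 ± 0.185 fragments in Ezh2i samples and 2.60 ± 0.108 fragments in controls (SD, n = 3 each). All 3 Ezh2i samples lay above all 3 controls, by 0.248 fragments on average (exact permutation test, two-sided, p = 0.1, which is the lowest possible). These are values of clusters alone, not set against other regions. Before normalization the mean log2 heights in clusters were also above all controls in the Ezh2i samples (5.37, 5.41 and 5.40, against 5.24, 5.33 and 5.24). A background rise particular to clusters is therefore not read from them.

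Peaks of clusters were counted more often in the Ezh2i lists, but the selection was uneven between exposures, so the shares are a description. Since the rule counts lists, each list was held out in turn, clusters were defined from the other 5, and the share of their regions with a peak in the list held out was counted, a comparison chosen after seeing the data. This share was 90.9%, 91.8% and 91.7% in Ezh2i samples 1, 2 and 3, and 84.4%, 86.4% and 86.1% in controls 1, 2 and 3. The groups did not overlap, with means of 91.5% ± 0.444 in Ezh2i samples and 85.6% ± 1.11 in controls (SD, n = 3 each). Other regions had a peak in 88.3%, 82.2% and 89.6% of cases in the Ezh2i samples, and in 83.5%, 84.5% and 79.9% of cases in the controls. There the groups overlapped. The difference between clusters and other regions was 4.74 ± 4.16 percentage points in Ezh2i samples and 2.99 ± 2.84 in controls (SD, n = 3 each). In this contrast the groups overlapped as well. The largest gain in clusters within their groups was that of Ezh2i sample 2, with 9.53 points, and of control 3, with 6.21 points. With a control list held out, regions could pass the filter through the 3 Ezh2i lists alone. With an Ezh2i list held out, they could pass through the 3 control lists alone. Regions in the lists of 1 exposure alone were mostly those of Ezh2i, 31 against 3 in clusters and 638 against 279 elsewhere. They lower the shares of the controls more, so no test is given and no conclusion is drawn from these shares.

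A small number of members had peaks under 1 exposure alone. Of the 1914 members, 31 were in all 3 Ezh2i lists and in no control list, spread over 30 clusters. Only 3 were in all 3 control lists and in no Ezh2i list. Outside clusters the same patterns were found at 638 and 279 of the 48619 other regions. Such regions passed the filter through the lists of 1 exposure, so their heights in that exposure were fixed by the selection, and the counts and values are a description. The 31 members were low and short, with a median height of 17.3 fragments, a range of 11.3 to 34.7 fragments and a median length of 124 bases. The tallest, at chr20:10111176-10111293 in a cluster of 7 regions, had 37, 33 and 34 fragments in Ezh2i samples 1, 2 and 3. A height of up to 10, 15 and 10 fragments would have remained uncalled in controls 1, 2 and 3, given the background of their nearest peaks, a limit that takes no account of the length a peak must have. At chr3:5963527-5963650 the heights were 33, 28 and 31 fragments in the Ezh2i samples, and up to 14 fragments would have remained uncalled in the controls. At chr23:3756638-3756767 they were 31, 31 and 29 fragments in the Ezh2i samples, with a limit of 17 fragments in each control. The 3 members with peaks in the control lists alone were at chr10:16815900-16816012, chr16:15658716-15658839 and chr16:12235541-12235718, with mean heights of 19.7, 16 and 14.7 fragments.

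Single regions were then compared with limma on quantile-normalized log2 heights over the 30071 regions found in every list, of which 1261 were members. Called were 0 members and 0 regions in all (0%) at a Benjamini-Hochberg adjusted p under 0.05, and the smallest adjusted p was 0.746. At an unadjusted p under 0.05 there were 54 members (4.28%), against 6.24% of all regions tested. Of these, 30 were higher in Ezh2i samples (2.38%, against 3.19% of all) and 24 were lower (1.90%, against 3.05%). The 54 became 94 without Ezh2i sample 2 and 32 without Ezh2i sample 3. Shares over all regions in those fits are not given, so nothing is concluded from these counts. The Ezh2i samples were all above or all below the controls at 151 members (12.0%), near the 11.1% of all regions. They were above at 88 members (6.98%, against 5.69%) and below at 63 (5.00%, against 5.39%). Quantile normalization removes a shift common to all regions, so their centre near 0 was fixed in advance. Members had a median log2 difference of 0.0037, against -0.0012 over all regions, and 50.7% of them were above 0. Before normalization their mean log2 heights were 5.37, 5.41 and 5.40 in Ezh2i samples and 5.24, 5.33 and 5.24 in controls. Those of other regions were 4.79, 4.64 and 4.83 in Ezh2i samples and 4.65, 4.70 and 4.54 in controls. Normalized differences of members ranged from -0.996 to 0.752 with an SD of 0.23, against 0.26 over all regions.

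The member with the lowest p lay at chr13:19117389-19117612, the fourth of 5 regions of its cluster. It reached 34, 45 and 34 fragments in Ezh2i samples 1, 2 and 3, and 59, 65 and 67 in controls 1, 2 and 3. The groups did not overlap, and the log2 difference was -0.89 ± 0.21 (SE; limma, unadjusted p = 0.0014, adjusted p = 0.746). A region at chr11:18614203-18614341 had 17, 26 and 35 fragments in Ezh2i samples and 49, 45 and 41 in controls. In the other direction, a region at chr2:47432616-47432780 had 51, 44 and 52 fragments in Ezh2i samples and 26, 32 and 26 in controls, with a log2 difference of 0.68. A region at chr13:7573628-7573757 had 25, 33 and 29 fragments in Ezh2i samples and 18, 13 and 16 in controls. All 4 separated the exposures in every sample, and all had the same adjusted p of 0.746 in limma. They were picked among the members with the lowest p, so their separation follows from the choice. Over all members tested, the exposures did not overlap in 12.0%, against 11.1% of all regions.

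To test whether the mean of a chain changed, the normalized log2 heights of its regions found in all 6 lists were averaged. The chain was then compared as a unit. A single region can move such a mean, and opposite changes within a chain cancel. The fit thus does not show whether the regions changed together. The fit held 3767 chains with at least 2 such regions, of which 368 were dense clusters, and 55 clusters had too few such regions. Called were 0 clusters and 0 chains in all (0%) at an adjusted p under 0.05 in limma, and the smallest adjusted p was 0.570. At an unadjusted p under 0.05 there were 21 clusters (5.71%), against 6.96% of all chains, 15 higher in Ezh2i samples (4.08%, against 4.19%) and 6 lower (1.63%, against 2.76%). The samples did not overlap between exposures in 51 clusters (13.9%, against 13.6% of all chains). In 34 of these the Ezh2i samples were above the controls (9.24%, against 8.26%) and in 17 they were below (4.62%, against 5.34%). Log2 differences of clusters ranged from -0.81 to 0.62, with a median of 0.0027, against 0.0050 over all chains. The counts of clusters were thus near those of chains in general.

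**Figure D2:**
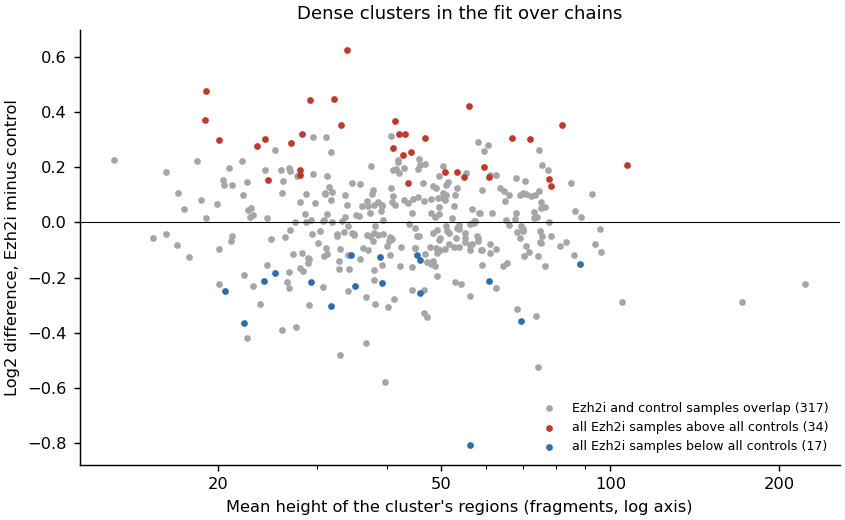
Log2 difference between Ezh2i and control for the 368 dense clusters in the fit, by the mean height of their regions with a peak in all 6 lists (fragments, log axis). Each point is a cluster, red where all 3 Ezh2i samples were above all controls (34), blue where all were below (17) and grey where they overlapped (317); the differences lay between -0.81 and 0.62 on both sides of 0.

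The largest positive difference, chosen after its value was seen, was that of a cluster of 4 regions at chr2:47429982-47432780. Its means over 2 regions tested were 42, 41 and 45 fragments in Ezh2i samples 1, 2 and 3, and 23, 26 and 26.5 fragments in controls 1, 2 and 3. The log2 difference was 0.62 ± 0.14 (SE; limma, unadjusted p = 0.0005, adjusted p = 0.570). The next was at chr9:48723217-48726354, with 24, 24 and 22 fragments in Ezh2i samples and 15.5, 15 and 14 in controls (log2 difference 0.48). In both clusters every Ezh2i sample was above every control, and neither passed the adjusted threshold.

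Counts of clusters changed when a sample was left out. The regions fitted were then those with a peak in every list left, so the clusters tested were not the same. Without Ezh2i sample 2, 42 clusters in place of 21 had an unadjusted p under 0.05 in limma (9 without Ezh2i sample 3). In that fit without Ezh2i sample 2, 3 clusters were called, all lower in the Ezh2i samples. With any other sample left out, 0 clusters were called. The shares over all chains in these fits are not given, so the counts cannot be set against the general rate and nothing is concluded from the calls. The cluster at chr13:19115613-19118712, which holds the member with the lowest p, had a mean height (fragments) of 37.0, 55.0 and 38.0 in Ezh2i samples 1, 2 and 3, and 56.5, 70.5 and 80.5 fragments in controls. Its log2 difference was -0.81 with all samples (adjusted p = 0.570 in limma) and -1.04 without Ezh2i sample 2 (adjusted p = 0.0464). The cluster at chr3:55364028-55367141 had 30.5, 47.5 and 25.5 fragments in Ezh2i samples and 45.5, 48.5 and 41.0 in controls. Its log2 difference was -0.58 with all samples and -0.87 without Ezh2i sample 2. At chr14:20104355-20112012 the means were 50.7, 101 and 46.3 fragments in Ezh2i samples and 66.3, 94.7 and 87.0 in controls, with log2 differences of -0.52 and -0.97 (adjusted p = 0.0464 in limma for both clusters without Ezh2i sample 2). In each of these 3 clusters Ezh2i sample 2 was the highest of the Ezh2i samples, so leaving it out lowered the Ezh2i mean. In the cluster on chromosome 14 it was also above all controls. The means cover only regions with a peak in all 6 lists. These were 2 of 5 regions on chromosome 13, 2 of 4 on chromosome 3 and 3 of 4 on chromosome 14.

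The largest clusters did not separate the exposures. The cluster of 16 regions at chr25:35131879-35155949 had a mean height (fragments) of 53.2, 45.5 and 45.5 in Ezh2i samples 1, 2 and 3, and 50.8, 51.8 and 43.0 fragments in controls 1, 2 and 3. Its log2 difference was -0.14 ± 0.14 (SE; limma, adjusted p = 0.834), and of its 13 regions tested 3 were higher and 10 lower. The cluster of 15 regions at chr25:36325602-36349647 had 56.0, 51.9 and 48.9 fragments in Ezh2i samples and 50.8, 54.2 and 47.6 in controls, a log2 difference of -0.077 (limma, adjusted p = 0.925). Its sign turned when heights were scaled to library size (0.039) and without Ezh2i sample 3 (0.0053). Both clusters were alike in build, with median gaps of 1079 and 1141 bases and spans of 24071 and 24046 bases. Their regions were also of even height for a cluster, with coefficients of variation of 29.9% and 34.0%.

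**Figure D3:**
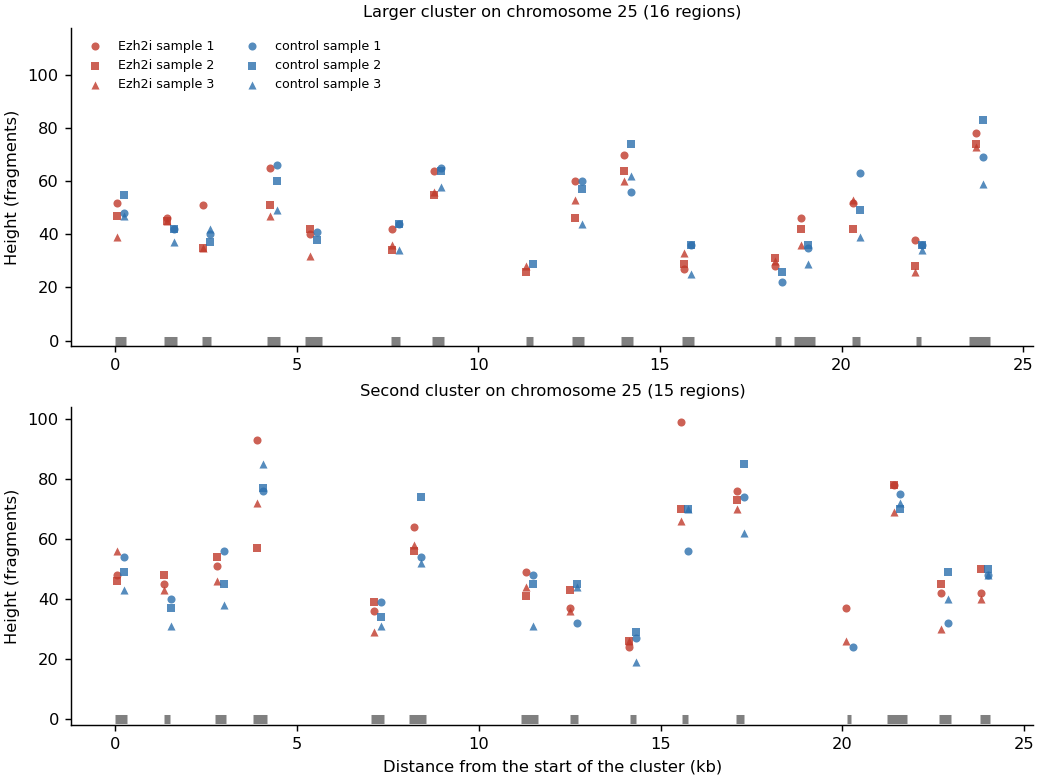
Heights (fragments at the summit) along both largest clusters, by distance from the start of the cluster in kb. Ezh2i samples are in red and controls in blue (circle, square and triangle for samples 1, 2 and 3), the grey bars are the regions, and a missing point is a region without a peak in that sample; red and blue points overlap at nearly every region.

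Next in size were 5 clusters of 9 regions. One lay at the start of chromosome 7 (chr7:2146-10140) and held the tallest member of all, with a mean height of 401 fragments. Its mean heights were 273, 154 and 179 fragments in Ezh2i samples and 247, 291 and 189 fragments in controls, which overlapped (log2 difference -0.22; limma, adjusted p = 0.812). The most compact of the 9-region clusters, at chr11:17565123-17568944, had a median gap of 176.5 bases. It had 36.3, 57.8 and 37.5 fragments in Ezh2i samples and 40.5, 48.8 and 59.0 fragments in controls, again with overlap. At chr7:5903835-5914225 all 7 regions tested were higher, with means of 86.0, 67.1 and 81.4 fragments in Ezh2i samples against 69.0, 75.6 and 60.7 in controls and a log2 difference of 0.099 (limma, adjusted p = 0.887). At chr25:35101625-35114038 the means were 60.2, 56.3 and 54.2 fragments in Ezh2i samples and 56.2, 62.2 and 49.0 in controls (log2 difference -0.081). The samples of both exposures overlapped in all 5 of these clusters, including the one on chromosome 10 that is described next.

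Chromosome 10 held neighbouring clusters that were both lower in Ezh2i samples 1 and 3. At chr10:16815900-16826028 the means over 5 regions were 29.2, 40.8 and 29.0 fragments in Ezh2i samples and 33.2, 43.8 and 44.0 fragments in controls. All 5 regions were lower, by 0.44 ± 0.18 on the log2 scale on average (SE; limma, unadjusted p = 0.033, adjusted p = 0.634), and a sixth region of the cluster was the control-only peak named above. In the same stretch of the chromosome, the cluster at chr10:16797838-16802046 had 141, 207 and 131 fragments in Ezh2i samples and 172, 200 and 181 in controls, with all 4 regions lower (log2 difference -0.29). Ezh2i sample 2 lay within the range of the controls in the first of them and above all controls in the other. The same samples were low at chr15:7287670-7290979 (35, 58 and 38.3 fragments in Ezh2i samples, against 42.5, 50.8 and 58.8 in controls) and at chr7:53011247-53015228 (78.6, 129 and 84.6 fragments in Ezh2i samples, against 98.2, 111 and 128 in controls). With the compact cluster on chromosome 11 these had the lowest differences among clusters with at least 4 regions tested, and the samples of both exposures overlapped in each.

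At the other end, 4 of the 5 clusters with the highest differences among those with at least 4 regions tested separated the exposures. They were picked by this difference, so their separation is a description. Over the 368 dense clusters in the fit, the exposures did not overlap in 13.9%. The cluster at chr7:15870111-15878551 had a mean height (fragments) of 47.8, 44.2 and 50.2 in Ezh2i samples 1, 2 and 3, and 40.2, 38.8 and 31.4 fragments in controls 1, 2 and 3. Its log2 difference was 0.32 ± 0.13 (SE; limma, unadjusted p = 0.032, adjusted p = 0.634). The difference was uneven along its 6 regions. The first region had 20, 24 and 24 fragments in Ezh2i samples and 15, 12 and 12 in controls, a log2 difference of 0.66. The second region, at chr7:15871259-15871372, had 29, 28 and 27 fragments in Ezh2i samples and no peak in any control, where up to 9 fragments would have remained uncalled. The third had 28, 38 and 37 fragments in Ezh2i samples and 31, 36 and 30 in controls (log2 difference -0.077), and the fourth also overlapped. The next to last had 38, 30 and 29 fragments in Ezh2i samples and 20, 22 and 16 in controls (log2 difference 0.59). Regions on both sides of overlapping ones thus separated the exposures, within 8441 bases.

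**Figure D4:**
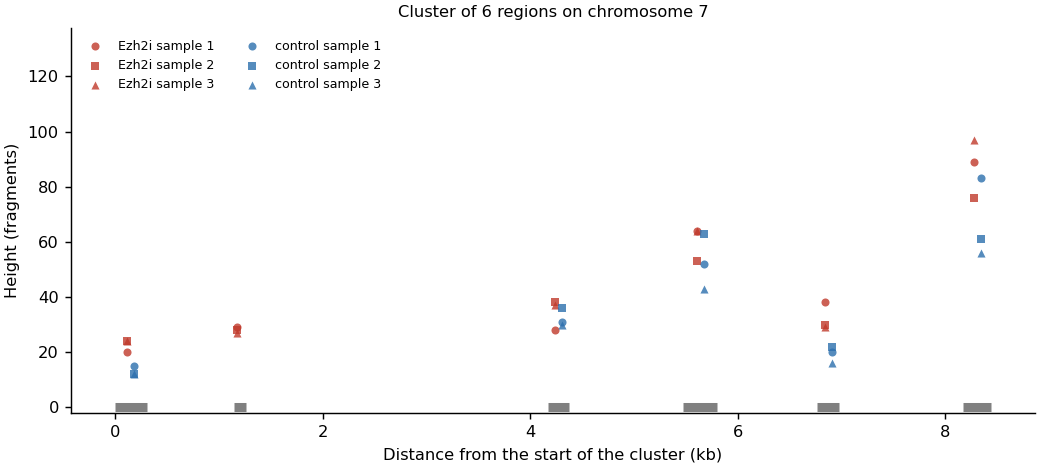
Heights (fragments at the summit) along the cluster of 6 regions on chromosome 7, by distance from its start in kb. Ezh2i samples are in red and controls in blue, the grey bars are the regions, and the second region has no control points because no control list held a peak there; the first region and the next to last had higher Ezh2i samples (20 to 24 and 29 to 38 fragments, against 12 to 15 and 16 to 22 in controls).

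A more even pattern was seen at chr13:39229415-39238282. Its means were 32.3, 32.5 and 33.5 fragments in Ezh2i samples and 22.0, 25.8 and 23.3 fragments in controls, with all 4 regions tested higher and a log2 difference of 0.32. At chr12:42428425-42436346 the means were 73.3, 71.0 and 82.8 fragments in Ezh2i samples and 61.8, 59.3 and 52.8 in controls (log2 difference 0.30). At chr20:54187726-54201211 they were 49.3, 43.3 and 54.0 fragments in Ezh2i samples and 38.5, 41 and 32 in controls (log2 difference 0.32). In all 3 clusters the exposures did not overlap and every region tested had a positive difference, while the adjusted p-values in limma lay between 0.634 and 0.666. The last of the highest clusters, at chr13:19328057-19330845, had 28.0, 36.8 and 37.3 fragments in Ezh2i samples and 27.8, 22.8 and 25.0 in controls on the raw scale, and its exposures overlapped after normalization. Over the alternatives that were run, the log2 differences of these 5 clusters stayed above 0 and the lowest adjusted p in limma was 0.292. With fold enrichment in place of height the differences were 0.022 to 0.19. The alternatives reuse the samples that chose these clusters, so the kept sign is no separate support.

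Neighbouring regions of a cluster did vary together. The log2 differences between exposures of consecutive regions, both with a peak in all lists, had a Pearson r of 0.31 inside clusters (668 pairs). In chains of 2 or 3 regions it was 0.21 (3574 pairs), and in the successive classes of gaps over 3000 and up to 10000, up to 50000 and over 50000 bases it was 0.16, 0.083 and 0.091 (4155, 6885 and 1990 pairs). These pairs share the same 6 libraries, so the values describe these samples and carry no p. Both regions of a pair had the same sign in 62.1% of pairs inside clusters and in 57.3% in chains of 2 or 3. In the successive classes of gaps over 3000 bases this share was 56.6%, 53.3% and 53.0%. Taller regions are measured with less counting error, and clusters are tall. Among pairs with both mean heights of at least 32 fragments, a limit chosen after seeing the data, r was 0.33 inside clusters, 0.27 in chains of 2 or 3, and 0.27, 0.16 and 0.21 in the classes of longer gaps. Inside clusters r showed no steady fall with distance. In successive classes it was 0.22 for gaps up to 500 bases (154 pairs), 0.43 for gaps of up to 1000 bases (150 pairs), 0.26 for up to 2000 bases (220 pairs) and 0.31 for up to 3000 bases (144 pairs), and members 2 and 3 places apart had 0.31 and 0.33.

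The same was seen over whole clusters. The intraclass correlation of the differences was 0.35 over 1215 regions of 368 clusters and 0.22 over 3399 chains of 2 or 3. In clusters it was 0.22 without Ezh2i sample 3. Of the 284 clusters with at least 3 regions tested, 51 had all regions higher in Ezh2i samples after normalization and 52 had all lower (36.3% together). The same share of other chains is not given, so this one is a description and is not called particular to clusters. Runs of 3 consecutive regions had differences of 1 sign in 141 of 336 cases inside clusters (42.0%) and in 29.6% of 2839 runs with both gaps over 10000 bases. The share for closer regions outside clusters is not given.

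This joint variation was of like size between samples of the same exposure. The differences were recomputed for each of the 15 pairs of samples. Inside clusters, r of consecutive regions was 0.094 to 0.40 with a median of 0.23 over the 9 pairs of an Ezh2i sample and a control, and 0.094 to 0.33 with a median of 0.21 over the 6 pairs of samples of one exposure. The highest values were 0.40 between Ezh2i sample 3 and control 3 and 0.38 between Ezh2i sample 1 and control 3, followed by 0.33 between Ezh2i samples 1 and 2. The lowest values were 0.094 between Ezh2i sample 1 and control 1 and also between controls 1 and 2. The ranges within and between exposures thus overlapped and had similar medians, while values above 0.33 were found only between exposures. The covariance of neighbours' differences was 1.57 times that computed from the spread between replicates inside clusters, and 1.37 to 1.92 times in the other classes.

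**Figure D5:**
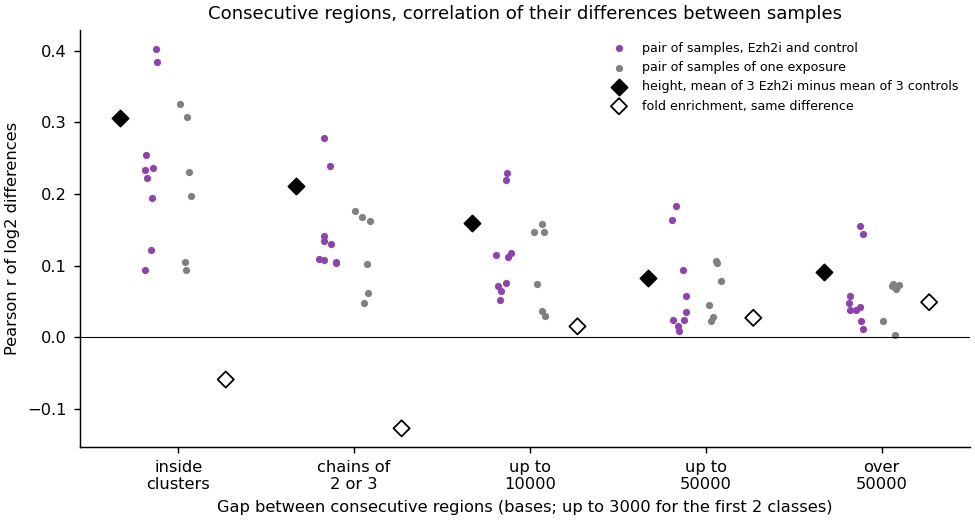
Pearson r of log2 differences of consecutive regions, by class of gap. Purple points are pairs of an Ezh2i sample and a control, grey points are pairs of samples of one exposure, filled diamonds are the difference of the exposure means of height and open diamonds the same for fold enrichment; inside clusters the filled diamond is at 0.31, the purple points span 0.094 to 0.40, the grey points 0.094 to 0.33, and the open diamond is at -0.059.

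Local background moved with the heights. Across members with a peak in all lists, the difference in height between exposures and the difference in background had an r of 0.64, and across the means of the 368 clusters it was 0.84. In other regions it was 0.60. The background of a library includes the fragments of the peaks themselves and of their neighbours, so both measures share fragments. When fold enrichment over the local background took the place of height, r between consecutive regions of a cluster was -0.059, and in the other classes it lay between -0.13 and 0.049. The part of the background in the joint variation of neighbours was not tested.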

How the data were processed

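ATAC-seq peak lists of 3 Ezh2i and 3 control samples were analysed. The authors trimmed the reads with Trim Galore and aligned them with Bowtie2 to GRCz11 in snakePipes. Per sample, MACS2 (2.1.1.20160309) was then used for the peaks, with no control library, a q-value limit of 0.001 and at most 1 duplicate. The deposited signal is the pileup, the coverage at the summit, and the deposited fold enrichment is its ratio to the local background with 1 added to each, from which the background was derived. The authors' −log10 q-values were used in 1 alternative, and the deposited −log10 p-values only for the height at which a peak is called. The lowest pileup was 5 fragments.

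Peaks were merged and chained as described in the text. Pileups are not read counts, so the study's test on counts was not run. Log2 heights were quantile-normalized and compared with limma (version 3.58.1, R 4.3.3) with Benjamini-Hochberg adjustment at 0.05, over all merged regions or over all chains. The limma fits were tested on simulated heights. Measures that give a single value per sample had two-sided exact permutation tests, which are not given for the shares in lists held out. A sign-flip test planned for the height of clusters against other regions is not given, since these heights come from the peaks that chose the clusters. Nothing states that replicates were separate batches of embryos, so p-values measure the spread between these samples. No pairing of samples by replicate number is stated, and the numbers were not taken as pairs.

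The height that would have remained uncalled was the tallest pileup that misses the weakest p-value of that list at the background of the nearest peak. The clusters named are the 5 with most regions (ties by span, shortest first) and the 5 highest and 5 lowest differences among those with at least 4 regions tested, and others were chosen after their values were seen. Members and lists were chosen with earlier results of these data known. Other steps used Python 3.11.15 (numpy 2.4.6, pandas 2.3.3, matplotlib 3.10.9, scipy 1.17.1). Alternatives were other merging, gap, size and list rules, a stricter q-value, other scalings, fold enrichment, a trend, a replicate block, filled missing peaks and leaving out each sample.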

Additional observations from a re-analysis of the deposited data

How the results depend on the processing

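The number of regions and clusters followed the rule. A peak in at least 2 lists gave 2939 regions in 652 clusters and a peak in all 6 lists gave 525 in 120. Gaps of at most 2000 and 5000 bases gave 949 in 220 and 4142 in 878. Clusters of at least 3 and at least 6 regions gave 5787 in 1714 and 342 in 48. Leaving out 1 sample gave 1554 to 1716 regions in 348 to 383 clusters.

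The height difference between clusters and other regions was 0.65 to 0.67 on the log2 scale with 1 sample left out and -0.42 for fold enrichment. Over the other rules for lists, gaps and cluster size it ranged from 0.47 (clusters of at least 3) to 0.90 (clusters of at least 6). The exposure difference of -0.0027 was 0.0045 with at least 2 lists, 0.0146 with gaps of at most 5000 bases, 0.0150 with clusters of at least 3, 0.0712 with missing peaks set to the lowest height called, 0.0312 with missing peaks at the tallest height that would not be called (added after seeing the data), and -0.0688 to 0.0333 with 1 sample left out.

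No member was called except with missing peaks set to the lowest height called, where 19 of 1914 were called (0.993%, with 0.232% of all regions), 16 higher and 3 lower in Ezh2i samples. Each of the 19 had passed the filter through the lists of 1 exposure alone and was filled at the floor in the other, which fixes its direction, so nothing is read from this count. With missing peaks at the tallest height that would not be called, 0 were called (smallest adjusted p 0.202 in limma), and 101 had an unadjusted p under 0.05. Clusters called were 0 to 3 with 1 sample left out, the 3 without Ezh2i sample 2, and 0 elsewhere. Members with an unadjusted p under 0.05 numbered 8 to 161 over all alternatives, 96 with a trend, and clusters 3 to 64, 34 with heights scaled to library size. The rules kept unlike numbers of members. The 8 and 161 came from rules that kept 342 and 5787 regions, and the 3 and 64 from rules that kept 120 and 1714 clusters. Shares over all regions or chains in the same fits are not given, so these counts are not compared. With the replicate block, 0 members and 0 clusters were called. Samples with the same number had correlations of their deviations of 0.098, -0.029 and -0.12, so the numbers were not taken as pairs.

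The r of neighbouring members was -0.059 for fold enrichment, and the part of the background in this change was not tested. For heights, r was 0.16 with missing peaks set to the lowest height. With 1 sample left out it was 0.21 (without Ezh2i sample 3) to 0.41 (without Ezh2i sample 2). Of the 13 clusters named by number of regions or by difference among at least 4 regions tested, those that did not keep their direction were chr25:36325602-36349647 (0.039 with heights scaled to library size and -0.14 to 0.0053 with 1 sample left out, the last without Ezh2i sample 3), chr25:35131879-35155949 (0.045) and chr10:16797838-16802046 (0.19), the last 2 with missing peaks at the lowest height. For the other named clusters no such range is given. The causes were not tested.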

Other observations

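The gain in called peaks with the number of regions in a chain differed between samples. In Ezh2i sample 2 the share of regions with a peak was 81.0% in single regions, 87.2% in chains of 2, 89.6% in chains of 3, 91.8% in chains of 4 and 91.6% in longer chains. In control 3 it was 79.7%, 83.2%, 85.0%, 86.5% and 88.3% along the same classes. In control 1 there was no such gain, with 84.8%, 84.7%, 83.7%, 85.2% and 83.0%. The rule counts these peaks, so the shares are descriptions.

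A cluster on chromosome 5 held a pair of the regions with peaks in the Ezh2i lists alone, the only cluster with more than 1. At chr5:56268344-56268446 the heights were 13, 16 and 15 fragments in Ezh2i samples 1, 2 and 3, and at chr5:56272299-56272406 they were 13, 15 and 15 fragments. Up to 7 fragments would have remained uncalled in each control at both places.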
